A study of Mus musculus with 17 samples.

Results

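The genes described here are 9 members of the NRF2 antioxidant response, taken by symbol from a fixed list: Nfe2l2, Keap1, Nqo1, Hmox1, Gclc, Gclm, Srxn1, Txnrd1 and Gsr. All 9 were found among the 25198 gene rows of the count table. The samples were antral ovarian follicles of CD1 mice 16 days old, grown for 8 days in eIVFG, an encapsulated follicle culture, and then kept for 4 h with treatment before lysis. Tyrphostin samples received 10 µM Tyrphostin AG1478, an inhibitor of the EGF receptor kinase, in DMSO together with hCG, the gonadotropin used to trigger ovulation in culture. Control samples carry a treatment text identical to that of the treated samples, so whether they received hCG and DMSO is not stated. Each sample pooled 3 follicles, with granulosa cells, oocyte and any theca together, and was sequenced by the Smart-Seq2 protocol, which copies whole transcripts and does not tag single molecules. There were 11 Control libraries (6 in batch 1, 5 in batch 2) and 6 Tyrphostin libraries (3 in each batch), where a batch is a number in the labels with no further description. The names of the Control libraries put them in 5 sets, which were not a term in the tests. Whether libraries share animals is not stated, so the p-values measure only the spread between these samples.

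Nfe2l2 encodes NRF2, a transcription factor that pairs with small MAF proteins at antioxidant response elements. KEAP1 holds NRF2 in the cytoplasm and brings it to the CUL3 ubiquitin ligase for destruction. Oxidants and electrophiles modify KEAP1, NRF2 then escapes and its targets rise, so NRF2 activity is set largely at the protein level and its own mRNA need not follow. The targets listed here make glutathione (Gclc, Gclm), recycle it (Gsr), serve the thioredoxin system (Txnrd1, Srxn1), reduce quinones (Nqo1) and break down heme (Hmox1). Glutathione made in granulosa cells and oocytes is a main thiol defence of the growing follicle.

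The 9 genes did not move as a block. Gclc fell 2.12-fold and Srxn1 fell 1.75-fold in Tyrphostin, Keap1 rose 1.42-fold, and the other 5 were not called. Of the 8 genes with enough counts to test, 3 passed an adjusted p of 0.05 (edgeR quasi-likelihood test with batch as a term), 1 higher and 2 lower, where 10.6% of all 9603 genes tested were called (4.35% higher and 6.25% lower). The members were chosen with earlier results of these data known, so this count is a description only. The log2 fold changes were positive for 4 of the 8 and negative for 4, with a median of 0.14, against a median of 0.00 over all genes tested. With library totals alone as the scale that median over all genes moved up by 0.15 and 64.4% of the calls were higher, against 41.1% with TMM factors, which correct library sizes for differences in composition; the 3 calls among the members were made under both. In no member did all 6 Tyrphostin libraries lie on one side of all Control libraries, which held for 0.51% of genes above and 1% below. Shares over all genes were not counted for ranges apart within a single batch, or for only some Tyrphostin libraries outside the Control range. Such separations are given below as descriptions.

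The promoters of the members are shown because the NRF2 response is defined by a short element; Srxn1, Gclm and Keap1 were picked, with their values known, as windows with both elements, with 1 and with neither. No link between elements and changes was tested. RefSeq promoter windows (build GRCm38.p6, 250 bases before to 50 after a transcript start) matched 6 of the 9 genes in 8 windows, 3 of them for Txnrd1; Hmox1, Gclc and Gsr were not matched. The letters searched on both strands were TGACNNNGC, the core of the antioxidant response element, present in 12.4% of 32544 windows, and TGANTCA, the AP-1 element, present in 7.79%. The 2 patterns share their first 3 letters and can lie on the same bases. In the stretches below, which run 5′ to 3′ on the gene's strand and end where the GENCODE M21 gene begins, capitals mark a match to either pattern.
Srxn1, chr2:152105274-152105515, plus strand: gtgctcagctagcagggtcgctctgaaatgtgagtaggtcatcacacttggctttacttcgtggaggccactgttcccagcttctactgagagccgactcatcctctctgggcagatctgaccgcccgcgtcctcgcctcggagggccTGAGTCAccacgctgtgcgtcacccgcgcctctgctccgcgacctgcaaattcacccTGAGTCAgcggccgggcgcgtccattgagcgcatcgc
Gclm, chr3:122245307-122245556, plus strand: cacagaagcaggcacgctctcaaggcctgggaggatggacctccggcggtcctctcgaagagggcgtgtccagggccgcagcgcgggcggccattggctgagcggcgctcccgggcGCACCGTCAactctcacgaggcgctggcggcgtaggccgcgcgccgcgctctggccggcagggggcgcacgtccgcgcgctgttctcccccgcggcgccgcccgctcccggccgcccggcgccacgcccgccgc
Keap1, chr9:21239362-21239582, minus strand: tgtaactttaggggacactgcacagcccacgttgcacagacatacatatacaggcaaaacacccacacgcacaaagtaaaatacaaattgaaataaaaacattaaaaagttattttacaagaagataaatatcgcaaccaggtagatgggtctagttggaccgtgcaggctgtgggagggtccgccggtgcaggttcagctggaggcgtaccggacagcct

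Counted from +1 at the RefSeq transcript start, the Srxn1 window held the AP-1 letters at -102 to -96 and again at -45 to -39, and the antioxidant element core at 29 to 37, past the end of the printed stretch. The AP-1 letters at -45 to -39 are followed by gc, so they differ from the searched core only by G in place of its first C. Cores with that letter were not searched. Gclm held the antioxidant core at -134 to -126, read on the opposite strand. Keap1 held neither pattern. Of the others, Nfe2l2 held the antioxidant core at -240 to -232, Txnrd1 held it in 1 of 3 windows, and Nqo1 held neither. These matches are descriptions of letters in a short window and say nothing of binding in these follicles.

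Library totals ran from 1820545 to 8291024 counts, and 3 counts, the floor used here for detection, corresponded to between 0.336 and 1.64 CPM (a gene's counts as a share of its library, brought to a common total with TMM factors). The granulosa genes Inha and Inhba dominated the marker list of the follicle's main cell type, whose 8 genes summed to between 62436 and 81227 CPM in Control and between 52681 and 78135 CPM in Tyrphostin; Foxl2 held at most 30 counts and Amh at most 4. Of the 6 granulosa markers tested, 4 rose in Tyrphostin (Cyp19a1, Nr5a2, Hsd17b1 and Fshr, by 0.83 to 2.64 on the log2 scale), which moved in the same comparison as the members. Of 9 theca and stroma markers 8 were tested: within batch 1, 7 of the 8 were negative and edgeR called 2 lower (Col1a1 and Col1a2; median log2 fold change -1.05), and within batch 2 all 8 were positive (median 0.72). Their summed level was 266 to 2163 CPM in Control and 273 to 3090 CPM in Tyrphostin. The 8 oocyte markers summed to 19.1 to 88.7 CPM in Control and 20.8 to 225 CPM in Tyrphostin, highest in Tyrphostin 6. Control 7 stood apart with 0.175% of its counts from mitochondrially encoded genes. In the other batch 2 libraries this share was 0.781% to 1.32% in Tyrphostin, below the 1.74% to 1.94% of Control. In batch 1 it was 1.55% to 2.50% in Tyrphostin and 1.86% to 2.83% in Control. The share thus moved with treatment in batch 2 only with Control 7, itself a batch 2 library, set aside. The part of these markers and of the mitochondrial share in the members' changes was not tested. The summed level of 8 macrophage and leukocyte markers was 311 CPM in Control 7, 483 CPM in Control 8 and 867 CPM in Tyrphostin 5, and at most 125 CPM elsewhere. In follicles sequenced in bulk, fewer cells of a type and less RNA per cell cannot be told apart.

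**Figure D1:**
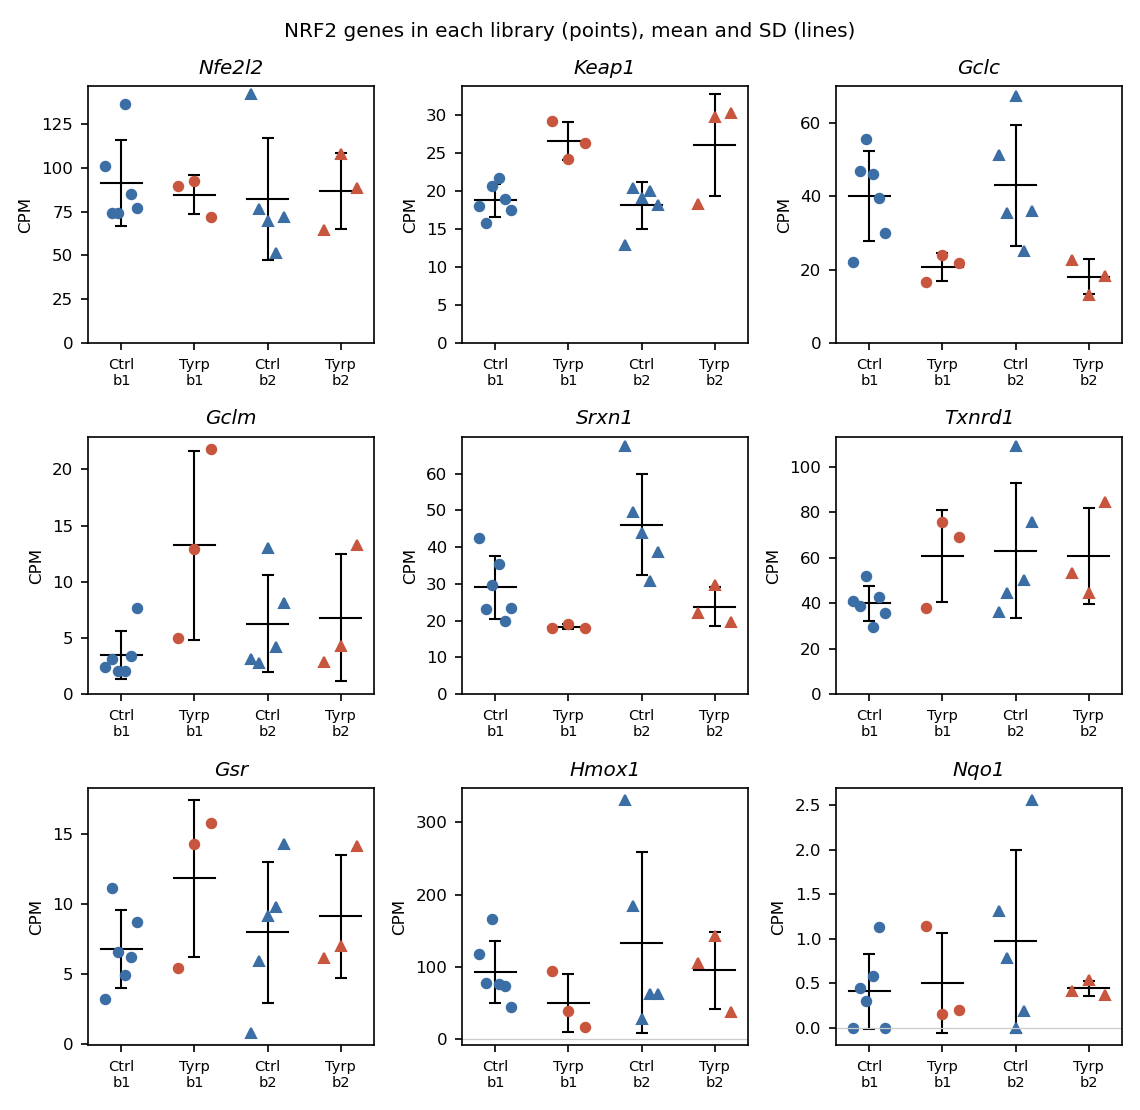
Level of each of the 9 genes in every library, in CPM with TMM factors (vertical axis, from 0). Blue points are Control (Ctrl) and red points Tyrphostin (Tyrp) libraries, circles batch 1 (b1) and triangles batch 2 (b2), with the mean and SD of each group as lines; Gclc and Srxn1 lie lower and Keap1 mostly higher in Tyrphostin, while Gclm, Gsr and Hmox1 spread widely within groups.

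Nfe2l2, the NRF2 gene itself (chr2:75675513-75704641, minus strand, GRCm38), was among the higher members and showed no difference. In Control its level had a lowest value of 51.2 CPM, a median of 76.8 and a highest of 142 CPM (mean 87.3 ± 28.3 SD, n = 11), and in Tyrphostin it ran from 64.5 through a median of 89.1 to 108 CPM (85.9 ± 15.5 SD, n = 6). The Tyrphostin range lay wholly inside the Control range. Its log2 fold change was -0.02 ± 0.20 (SE; 95% interval -0.42 to 0.39; edgeR adjusted p = 0.970), an interval that leaves room for changes of up to about 0.42 on the log2 scale either way. Its sign changed with the scaling, and was positive at 0.15 with library totals as the scale. The highest Nfe2l2 value belonged to Control 7, which is also highest for Srxn1 and Hmox1 and lowest in mitochondrial share.

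Keap1, the inhibitor of NRF2 (chr9:21229730-21239361, minus strand), rose. Control libraries lay between 12.9 and 21.8 CPM with a median of 18.9 CPM (18.5 ± 2.48 SD, n = 11). The 6 Tyrphostin libraries held 29.1, 24.2 and 26.3 CPM in batch 1 and 18.2, 29.6 and 30.2 CPM in batch 2 (26.3 ± 4.55 SD, n = 6). Tyrphostin 4 lay inside the Control range, and the other 5 Tyrphostin libraries lay above every Control library. Fitted with batch, the difference was 0.51 ± 0.15 on the log2 scale (SE; 95% interval 0.20 to 0.82; edgeR adjusted p = 0.0303). The size was alike in the batches, at 0.51 in batch 1 (edgeR adjusted p = 0.178) and 0.52 in batch 2 (edgeR adjusted p = 0.494), and in neither alone was it called. The call rests on few libraries: it was lost without Control 2 (0.48, edgeR adjusted p = 0.0528), Tyrphostin 1 (0.48, 0.0828), Tyrphostin 3 (0.52, 0.0551), Tyrphostin 5 (0.47, 0.0750) or Tyrphostin 6 (0.46, 0.0950), and without Control 7, Control 8 and Tyrphostin 5 together (0.45, 0.0818). With Control libraries summed by set the call was lost as well. The exons of Keap1 overlap those of an antisense gene, Gm16754, not analysed here. The strand setting of the counting is not given in the sources used here, so reads from the pair cannot be told apart.

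Gclc encodes the catalytic subunit of glutamate-cysteine ligase, which carries out the rate-limiting step of glutathione synthesis (chr9:77754535-77794485, plus strand). It fell, and had the lowest p of the members. Control libraries spread from 22.1 to 67.3 CPM around a median of 39.5 CPM (41.4 ± 13.6 SD, n = 11). Tyrphostin libraries held 16.5, 23.9 and 21.9 CPM in batch 1 and 22.6, 13.2 and 18.3 CPM in batch 2 (19.4 ± 4.12 SD, n = 6). All 6 Tyrphostin libraries lay below the Control median, and 4 lay below every Control library; the lowest Control value, 22.1 CPM in Control 1, kept the ranges in contact. On the log2 scale the change was -1.08 ± 0.22 (SE; 95% interval -1.54 to -0.63; edgeR adjusted p = 0.00206). It was called with each of the 17 libraries left out in turn, and without Control 7, Control 8 and Tyrphostin 5 together it was -0.98 (edgeR adjusted p = 0.00746).

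Taken batch by batch, Gclc differed by -0.95 in batch 1 (edgeR adjusted p = 0.0471) and by -1.23 in batch 2 (edgeR adjusted p = 0.139). In batch 2 all 3 Tyrphostin libraries lay below all 5 Control libraries, and in batch 1 2 of 3 did. The share of all genes apart in this way was not counted. The batches differ in how many genes pass at all: 6.73% of 9423 genes in batch 1 (2.94% higher and 3.79% lower) and 0.621% of 9830 genes in batch 2 (0.193% higher and 0.427% lower), where the count of 61 moved between 11 (without Tyrphostin 6) and 221 (without Control 7) when 1 library was left out. In batch 1 the Gclc call was lost without any 1 of Control 2, 3, 4 or 5 or of the 3 Tyrphostin libraries, with log2 fold changes from -1.05 to -0.80 and edgeR adjusted p from 0.0790 to 0.189. The difference between the batches in the treatment effect was -0.28 ± 0.43 for Gclc (SE; edgeR interaction term, adjusted p = 0.9997), and no gene of 9603 was called for that term by edgeR or by DESeq2, with 342 at an unadjusted p under 0.05 in edgeR.

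**Figure D2:**
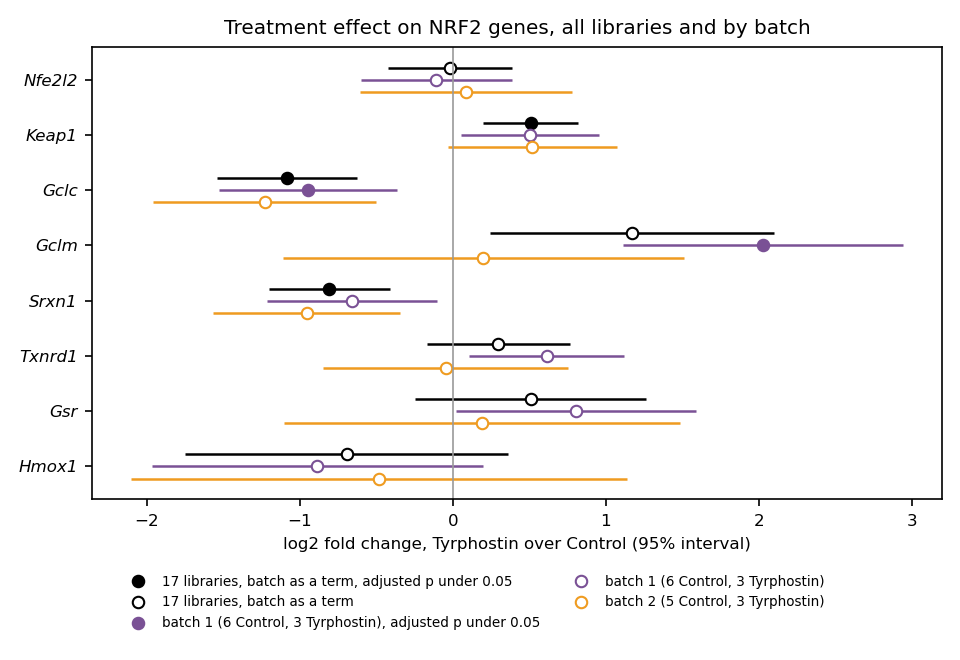
Log2 fold change of Tyrphostin over Control for the 8 members tested (horizontal axis), with 95% intervals from the edgeR fit over 17 libraries (black) and within batch 1 (purple) and batch 2 (orange); filled points have an adjusted p under 0.05. Keap1 keeps nearly the same place in both batches, and Gclc and Srxn1 lie below 0 in both. Gclm sits at 2.03 in batch 1 and 0.20 in batch 2, and its interaction with batch was not called.

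Gclm encodes the modifier subunit, which binds the catalytic subunit and raises its efficiency (chr3:122245557-122270732, plus strand). It had the lowest mean level of the members tested, on 7 to 38 counts in Control libraries and 16 to 112 in Tyrphostin libraries. Control libraries lay between 2.03 and 13 CPM with a median of 3.15 CPM (4.73 ± 3.46 SD, n = 11). Tyrphostin libraries held 5.02, 12.9 and 21.9 CPM in batch 1 and 2.88, 4.31 and 13.2 CPM in batch 2 (10.0 ± 7.31 SD, n = 6). Only Tyrphostin 3 and Tyrphostin 6 lay above every Control library, and the spread within each group was wide. The log2 fold change was 1.17 ± 0.44 (SE; 95% interval 0.24 to 2.10), and it missed the threshold (edgeR adjusted p = 0.104). Left out singly, Control 9 or Tyrphostin 4 brought the call, at 1.37 (edgeR adjusted p = 0.0332) and 1.45 (edgeR adjusted p = 0.0333). Part of the Gclm exons overlap Gm6061 and, on the opposite strand, Gm17494, neither analysed here, so its counts are uncertain to that extent.

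Within batch 1 Gclm rose by 2.03 ± 0.44 on the log2 scale (SE; edgeR adjusted p = 0.00789), a 4.08-fold difference. That call was lost without Tyrphostin 3, at 1.47 (edgeR adjusted p = 0.0814). In batch 2 the difference was 0.20 ± 0.60 (SE; edgeR adjusted p = 0.946), and it turned negative without Tyrphostin 6 (-0.75) or without Control 8 (-0.02). Control levels of Gclm were 3.45 ± 2.13 CPM in batch 1 (SD, n = 6) and 6.26 ± 4.33 CPM in batch 2 (SD, n = 5). The interaction of treatment with batch was -1.81 ± 0.81 for Gclm (SE; unadjusted p = 0.0359, edgeR adjusted p = 0.9997), so a difference between the batches did not pass the correction.

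Set against each other per kilobase of exon, the 2 subunit mRNAs were far apart in Control and closer in Tyrphostin. The Gclm level was between 2.25% and 15.2% of the Gclc level in Control libraries, with a median of 5.13%. In Tyrphostin it was 18.2%, 32.3% and 59.9% in batch 1 and 7.62%, 19.5% and 43.4% in batch 2. Tyrphostin 4, at 7.62%, fell inside the Control range, and the other 5 Tyrphostin libraries lay above it. The ratio was formed after the changes of both genes were known and is given as a description, with no test.

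**Figure D3:**
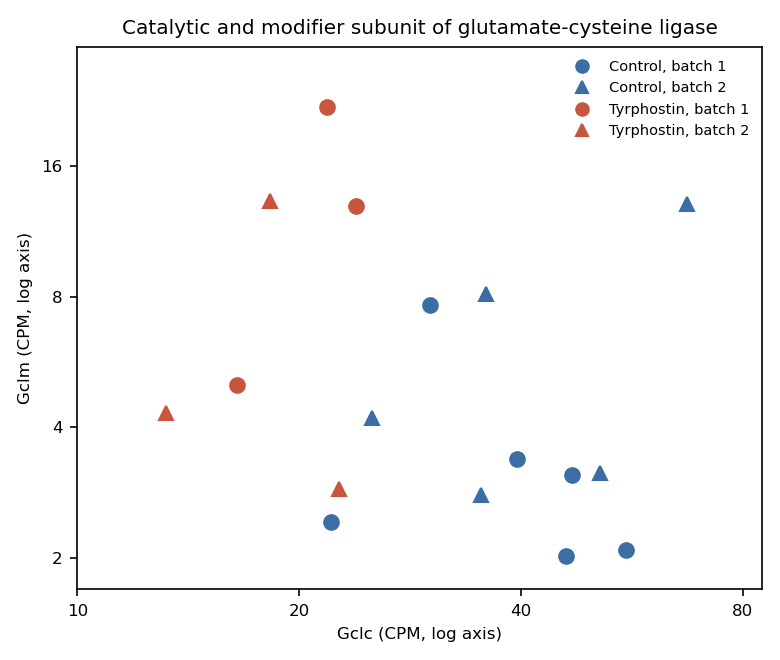
Gclc (horizontal, CPM, log axis) against Gclm (vertical, CPM, log axis) in the 17 libraries, blue for Control and red for Tyrphostin, circles for batch 1 and triangles for batch 2. Tyrphostin libraries lie at the low end of Gclc, from 13.2 to 23.9 CPM, and spread over 2.88 to 21.9 CPM in Gclm.

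Gsr encodes glutathione reductase, which returns oxidised glutathione to its thiol form with NADPH (chr8:33652523-33698163, plus strand). Its level in Control ran from 0.787 CPM, which is 3 counts in Control 7, through a median of 6.58 to 14.3 CPM (7.34 ± 3.79 SD, n = 11). Tyrphostin libraries held 5.45, 14.3 and 15.8 CPM in batch 1 and 6.17, 7.01 and 14.2 CPM in batch 2 (10.5 ± 4.74 SD, n = 6). The groups overlapped, with 1 of 6 Tyrphostin libraries above every Control library. A log2 fold change of 0.51 ± 0.36 (SE; 95% interval -0.24 to 1.27) was not called (edgeR adjusted p = 0.427).

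Srxn1 encodes sulfiredoxin, which repairs over-oxidised peroxiredoxins (chr2:152105516-152111376, plus strand). It fell, with Control libraries between 19.8 and 67.5 CPM around a median of 35.4 CPM (36.7 ± 13.9 SD, n = 11). Tyrphostin libraries were low, at 17.9, 19.1 and 18.0 CPM in batch 1 and 21.9, 29.6 and 19.6 CPM in batch 2 (21 ± 4.47 SD, n = 6). Those of batch 1 lay close together. Within each batch all 3 Tyrphostin libraries lay below every Control library of that batch, a separation whose share over all genes was not counted. The overlap of the pooled ranges came from Tyrphostin 4 and 5 of batch 2, which stood above the lowest Control library of batch 1. The log2 fold change was -0.81 ± 0.19 (SE; 95% interval -1.20 to -0.41; edgeR adjusted p = 0.00716), with -0.66 in batch 1 (edgeR adjusted p = 0.151) and -0.95 in batch 2 (edgeR adjusted p = 0.170). It was called with each library left out in turn, and without Control 7, Control 8 and Tyrphostin 5 together (-0.73, edgeR adjusted p = 0.0128).

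Srxn1 was also higher in the Control libraries of batch 2, at 46.0 ± 13.8 CPM (SD, n = 5), than in those of batch 1, at 29.0 ± 8.67 CPM (SD, n = 6). That batch difference of 0.68 ± 0.23 on the log2 scale (SE) just missed the threshold (edgeR adjusted p = 0.0585), in a comparison where 14% of 6680 genes were called (7.26% higher and 6.77% lower in batch 2). It was called without Control 1 (0.82, edgeR adjusted p = 0.0307) or Control 10 (0.78, edgeR adjusted p = 0.0482). For Srxn1 the batch difference among Control libraries was therefore close in size to the treatment difference, and the treatment values above come from a fit with batch as a term.

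Txnrd1 encodes cytosolic thioredoxin reductase, which keeps thioredoxin reduced with NADPH (chr10:82833951-82897712, plus strand). Control levels ran from 29.3 to 109 CPM with a median of 42.6 CPM (50.4 ± 23.0 SD, n = 11). Tyrphostin libraries held 37.7, 75.7 and 68.9 CPM in batch 1 and 53.1, 44.2 and 84.5 CPM in batch 2 (60.7 ± 18.5 SD, n = 6). Every Tyrphostin library lay inside the Control range, whose top was set by Control 9. Its log2 fold change was 0.30 ± 0.23 (SE; 95% interval -0.17 to 0.77; edgeR adjusted p = 0.460), with 0.61 in batch 1 (edgeR adjusted p = 0.146) and -0.05 in batch 2 (edgeR adjusted p = 0.981). Among Control libraries Txnrd1 was 0.68 ± 0.26 higher in batch 2 on the log2 scale (SE; edgeR adjusted p = 0.0907), and this was called without Control 7 (0.83, edgeR adjusted p = 0.0238).

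Gclm, Gsr and Txnrd1 had the same 3 highest Tyrphostin libraries, Tyrphostin 2, 3 and 6, in an order that differed between the genes, and Control 9 and Control 11 were the 2 highest Control libraries for Gclm and Txnrd1. For Gsr the highest Control library was also Control 11, at 14.3 CPM, but Control 2 and Control 10 lay above Control 9, which held 9.12 CPM. For Gclc, Tyrphostin 4 was above Tyrphostin 3 and 6, and for Gclm it was the lowest of all 6. Set side by side, the log2 fold changes of Gclm, Gsr and Txnrd1 were 2.03, 0.81 and 0.61 in batch 1 and 0.20, 0.19 and -0.05 in batch 2, whereas those of Gclc and Srxn1 were negative in both. The interaction term was not called for any of the 3 (edgeR adjusted p = 0.9997 for each).

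Hmox1 encodes heme oxygenase-1, which opens heme to biliverdin, iron and carbon monoxide and is also abundant in macrophages (chr8:75093621-75100589, plus strand). Its SD was 78.5% of its mean in Control, the largest such share among the members tested. Control libraries ran from 28.2 CPM through a median of 76.9 to 331 CPM (111 ± 87.4 SD, n = 11), and Tyrphostin libraries held 94.0, 39.0 and 17.2 CPM in batch 1 and 105, 143 and 38.0 CPM in batch 2 (72.7 ± 48.6 SD, n = 6). One Tyrphostin library lay below every Control library and the other 5 lay inside the Control range. The log2 fold change of -0.69 ± 0.50 (SE; 95% interval -1.75 to 0.36) was not called (edgeR adjusted p = 0.438).

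The 3 libraries with the highest leukocyte marker sums were all among the 4 highest of 17 for Hmox1. Control 7 had 331 CPM of Hmox1 beside a marker sum of 311 CPM, Control 8 had 184 beside 483 CPM, and Tyrphostin 5 had 143 beside 867 CPM. The correspondence was not general, since Control 3 had 166 CPM of Hmox1 with a marker sum of 23.3 CPM, and Control 9 had the next highest marker sum, 125 CPM, with 28.2 CPM of Hmox1. Summed over the 8 markers, levels ran from 18.2 to 483 CPM in Control and from 21.5 to 867 CPM in Tyrphostin; Lyz2 gave most of the sums in those 3 libraries, and Itgam was at 0 in every library. Of these markers Csf1r, Lyz2 and Cd14 had enough counts to test, with log2 fold changes of -0.08, 0.36 and -0.57 and edgeR adjusted p of 0.845, 0.830 and 0.566. Without those 3 libraries the log2 fold change of Hmox1 was -0.34 (edgeR adjusted p = 0.709), and without Control 7 alone it was -0.38 (edgeR adjusted p = 0.669). The part of leukocyte RNA in the Hmox1 level was not tested beyond these values.

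**Figure D4:**
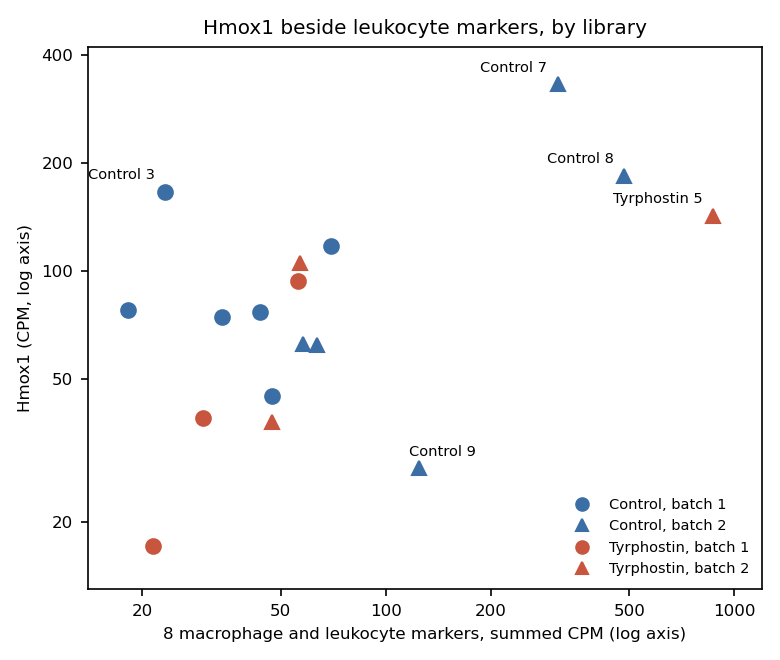
Hmox1 (vertical, CPM, log axis) against the summed CPM of 8 macrophage and leukocyte markers (horizontal, log axis) in the 17 libraries, blue for Control, red for Tyrphostin, circles for batch 1, triangles for batch 2. Control 7, Control 8 and Tyrphostin 5 are high in both, while Control 3 is high in Hmox1 with a marker sum of 23.3 CPM.

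Nqo1 encodes a quinone reductase that is often used as a readout of NRF2 activity (chr8:107388225-107403206, minus strand). It was hardly detected in these follicles. Counts ran from 0 to 12 per library, with 34 counts summed over the 11 Control libraries and 17 over the 6 Tyrphostin libraries. It was at 0 in 3 libraries, all of them Control, and above 3 counts in 5. It did not pass the filter on low counts, so no fold change is given, and a difference was not detectable at this depth.

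Per kilobase of exon, which allows levels to be compared between genes, the order of mean Control levels was Hmox1 (63.6 CPM per kb), Nfe2l2 (23.0), Srxn1 (13), Gclc (11.0), Txnrd1 (7.11), Keap1 (3.93), Gsr (2.67), Gclm (0.752) and Nqo1 (0.427). The Control ranges of every pair of neighbours in this order overlapped. Compared within libraries, Nfe2l2 was above Srxn1 in 11 of 11 Control and 6 of 6 Tyrphostin libraries, while Srxn1 was above Gclc in 7 of 11 and 6 of 6. Gclc was above Txnrd1 in 9 of 11 Control libraries and in 0 of 6 Tyrphostin libraries. Hmox1 was above Nfe2l2 in 10 of 11 Control and 3 of 6 Tyrphostin libraries. Tyrphostin means per kilobase were 5.15 CPM for Gclc and 8.56 CPM for Txnrd1.

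A wider set of 68 genes in 7 lists by function gave 59 genes tested, of which 11 were called (18.6%, against 10.6% of all genes), 3 higher and 8 lower, with a median log2 fold change of 0.02. The lists were chosen with earlier results of these data known, so their share is a description only. Of the 10 regulators and partners of NRF2, only Mafk was called: this small MAF partner fell by 0.95 ± 0.22 on the log2 scale (SE; edgeR adjusted p = 0.00621), with Tyrphostin libraries at 11.5 to 21.7 CPM against 22.3 to 51.8 CPM in Control in batch 1, and 8.39 to 14 against 16.5 to 36.9 CPM in batch 2. The ranges were apart in both batches. How many of all genes were apart in this way was not counted, here and for the list genes below. Mafk exons overlap Tmem184a on the opposite strand. Bach1, a repressor at the same elements, had -0.74 ± 0.28 (SE) and was not called (edgeR adjusted p = 0.0926).

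Of 15 genes of glutathione synthesis and use, 10 were tested and 3 were called by edgeR, all lower; DESeq2 also called Mgst1. Slc7a11, the subunit of the cystine transporter that supplies cysteine for glutathione, fell by 1.14 ± 0.24 on the log2 scale (SE; edgeR adjusted p = 0.00331). Its batch 1 levels were 39.3 to 68.1 CPM in Tyrphostin against 74.1 to 129 CPM in Control, without overlap, and in batch 2 the ranges of 30.8 to 109 and 83.7 to 238 CPM overlapped. The mRNAs of Slc7a11 and of Gclc, the catalytic subunit of glutamate-cysteine ligase, were thus both lower. The modifier subunit Gclm had a positive value of 1.17 (edgeR adjusted p = 0.104) and was called higher within batch 1. These are mRNA levels, and enzyme activity was not measured. The glutathione transferase Gsta4, which acts on lipid aldehydes, fell by 1.30 ± 0.25 (SE; edgeR adjusted p = 0.00147), from 337 to 810 CPM in Control to 229 to 324 CPM in Tyrphostin in batch 1 and from 219 to 697 CPM to 104 to 192 CPM in batch 2, apart in both. Gsta2 fell by 1.96 ± 0.42 (SE; edgeR adjusted p = 0.00342) at lower levels, 9.31 to 30.8 CPM in Control and 2.87 to 4.97 CPM in Tyrphostin in batch 1, while in batch 2 the ranges of 1.73 to 8.96 and 0.560 to 3.29 CPM overlapped. Reads of Gsta genes may be shared between near copies, so the values of Gsta2 and Gsta4 are uncertain to that extent.

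The thioredoxin list of 7 genes had 6 tested and 3 called, in both directions. Txn1, the cytosolic thioredoxin that Txnrd1 reduces, fell by 0.80 ± 0.20 on the log2 scale (SE; edgeR adjusted p = 0.00937). Txn2, the mitochondrial thioredoxin, rose by 0.72 ± 0.16 (SE; edgeR adjusted p = 0.00445), from 34.4 to 54.1 CPM in Control to 65.1 to 90.1 CPM in Tyrphostin in batch 1. In batch 2 its ranges of 43.1 to 70.61 CPM in Control and 70.62 to 128 CPM in Tyrphostin nearly touched. Prdx1, a peroxiredoxin and substrate of sulfiredoxin, rose by 0.59 ± 0.16 (SE; edgeR adjusted p = 0.0218) while Srxn1 fell. Prdx1 lost its call without Tyrphostin 1 (edgeR adjusted p = 0.0503), Tyrphostin 2 (0.0912) or Tyrphostin 6 (0.0641), and in 3 of 13 other alternatives.

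Over all 17 libraries none of the 6 genes of NADPH supply was called by edgeR, DESeq2 or limma-voom, and 2 of them, Idh1 and Me1, had an unadjusted p under 0.05; all 6 had positive values, with a median of 0.35. The lowest p belonged to Idh1, the cytosolic isocitrate dehydrogenase, at 0.57 ± 0.21 (SE; edgeR adjusted p = 0.0949), with 1.01 in batch 1, where it was called (edgeR adjusted p = 0.0174), and 0.07 in batch 2. Of 7 genes of heme and iron handling edgeR and limma-voom called only Fech, the last enzyme of heme synthesis, higher by 0.92 ± 0.27 (SE; edgeR adjusted p = 0.0313); DESeq2 called 3, adding Blvra and Slc40a1. The Fech call was lost without Tyrphostin 1 (edgeR adjusted p = 0.0556), Tyrphostin 2 (0.125) or Tyrphostin 5 (0.0817), and in 4 of 13 other alternatives. Neither ferritin gene was called, with Fth1 at -0.44 ± 0.21 (SE; edgeR adjusted p = 0.197) and Ftl1 at 0.24 ± 0.23 (SE; edgeR adjusted p = 0.594).

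Among 12 xenobiotic enzymes and exporters, 9 were tested and 2 were called, both lower. Akr1b8, an aldo-keto reductase, fell by 1.24 ± 0.30 on the log2 scale (SE; edgeR adjusted p = 0.0103), and Abcc1, an exporter of glutathione conjugates, fell by 0.83 ± 0.17 (SE; edgeR adjusted p = 0.00202). Akr1b8 levels were apart in batch 1, at 37.1 to 85 CPM in Tyrphostin and 119 to 193 CPM in Control, and overlapped in batch 2; its call was lost in 3 of 13 other alternatives. Of 11 antioxidant enzymes outside the NRF2 core, Prdx5 fell by 0.61 ± 0.18 (SE; edgeR adjusted p = 0.0276) and the superoxide dismutases and catalase were not called. Prdx5 lost its call without Tyrphostin 3 (edgeR adjusted p = 0.0850), Tyrphostin 5 (0.0515) or Tyrphostin 6 (0.0579), and in 6 of 13 other alternatives, among them the omission of Control 7, Control 8 and Tyrphostin 5 together (0.0640); its exons overlap those of Trmt112 on the opposite strand.

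**Figure D5:**
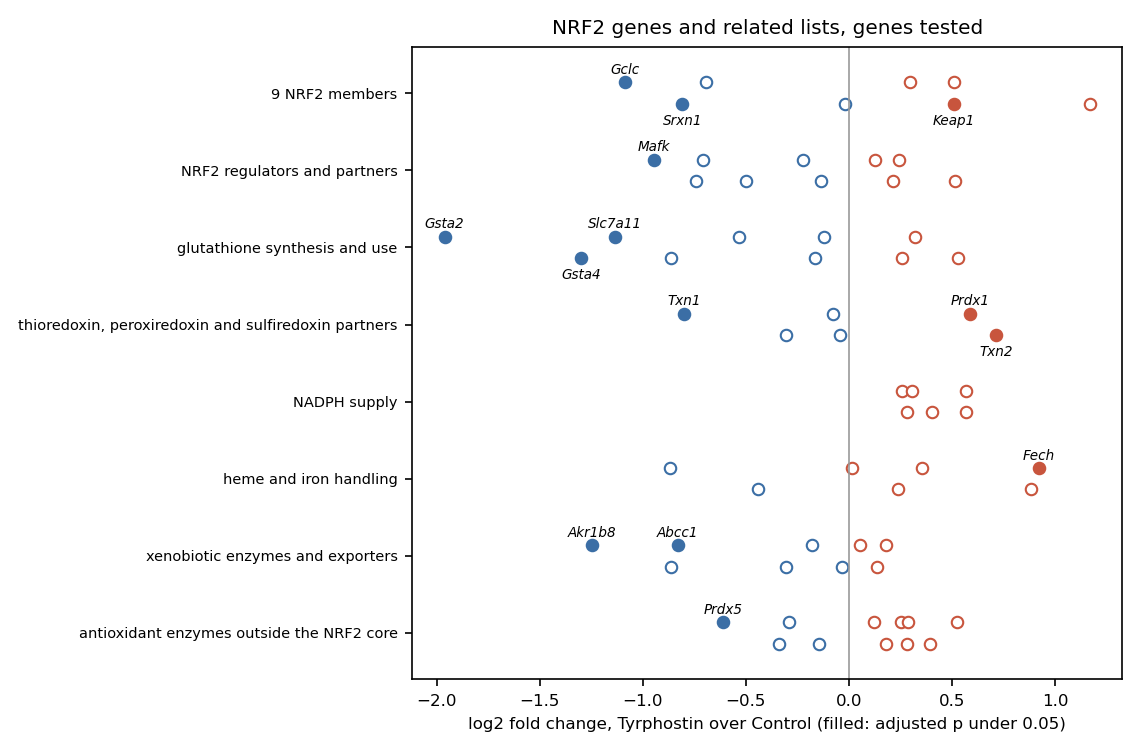
Log2 fold change of Tyrphostin over Control (horizontal axis) for each tested gene of the 9 members and of the 7 functional lists (rows), from the edgeR fit over 17 libraries; blue points are below 0, red points above 0, and filled, named points have an adjusted p under 0.05. The glutathione list has its 3 called genes below 0, and all 6 genes of NADPH supply are open points above 0.

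The genes whose levels most resembled the 2 members of lowest p were found by Pearson correlation of log2 CPM over the 17 libraries with batch means removed, which retains the treatment difference. For Gclc they were Cdca4 (r = 0.89), Ywhaz, a 14-3-3 protein (0.88), and Kdm1a, a histone demethylase (0.88). For Srxn1 they were Penk, which encodes proenkephalin (0.92), Map2k3, a kinase upstream of p38 (0.92), and Tnfrsf12a, the TWEAK receptor (0.90). All 6 were themselves lower in Tyrphostin, with log2 fold changes from -1.40 for Penk to -0.68 for Cdca4. Over the 11 Control libraries alone the correlations were 0.72, 0.70 and 0.83 for the 3 neighbours of Gclc and 0.90, 0.92 and 0.83 for those of Srxn1. The neighbours were picked over all 17 libraries, these 11 among them, so the Control values are not a separate check. All the correlations are descriptions of libraries that share a treatment and 2 batches, and no p is given.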

How the data were processed

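RNA-seq was done on 17 libraries of cultured mouse follicles. The authors deposited 1 table of whole-number counts per gene symbol (25198 rows, 3576 without a count); STAR, HTSeq and the build GRCm38 are named per the submitters' processing notes, while annotation, strand setting and filters are not given in the sources used here. Columns were assigned to samples through the library names in the labels. No step removing PCR copies is recorded, and floors of 3 counts cover counting error only.

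Counts were tested with edgeR 4.0.16 (R 4.3.3): filterByExpr on treatment, TMM factors, robust quasi-likelihood F test with batch as a term, Benjamini-Hochberg adjustment over all 9603 genes tested and a threshold of 0.05. The standard error is the log2 fold change divided by the square root of F, and 95% intervals come from the fit. The same test was run within each batch, for the interaction, and between batches among Control libraries. CPM use TMM-scaled library sizes; correlations use log2 CPM with a prior count of 2. Gene positions and exon lengths came from GENCODE M21 and promoter windows from RefSeq.

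The members and lists were chosen with earlier results of these data known. All members were described, every list gene called was named (in a list with none, the gene of lowest p), as were the 3 genes most alike the 2 members of lowest p; Bach1, Fth1, Ftl1, Me1, Mgst1, Blvra and Slc40a1 were named after their values were seen. Alternatives were other scalings and filters, DESeq2 1.42.0, limma-voom (limma 3.58.1), non-robust dispersion, other model terms, Control libraries summed by set (5 sets, from their library names) and omission of each library; omission of 3 libraries together was added after seeing the data. The fit was tested on simulated counts. The 31 pairs of libraries of 1 group and batch all differed by more than counting error (chi-square over its degrees of freedom, 11.8 to 84.1).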

Additional observations from a re-analysis of the deposited data

Results flagged for a closer look

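Single libraries that lay far from the rest of their group were sought over 13 measures by Dixon's gap test. The 39 groups searched held 5 or 6 libraries each. In these, 6 outlying libraries were found, and the nominal rate of the test, 1 in 20 groups, would give about 1.95. That rate assumes normally distributed values, and CPM values need not be so distributed. The 2 numbers are therefore not compared. Among the members, Gclm in Control 6 was 7.66 CPM, where the rest of batch 1 Control ran from 2.03 to 3.39 CPM. Nfe2l2 in Control 7 was 142 CPM, where the rest of batch 2 Control ran from 51.2 to 76.8 CPM. Srxn1 in Tyrphostin 5 was 29.6 CPM, against 17.9 to 21.9 CPM in the other Tyrphostin libraries, which lie in both batches.

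The same search found 3 properties of whole libraries. Control 6 had a total of 1820545 counts, where the rest of batch 1 Control held 3807300 to 4834875, so its Gclm level rests on 14 counts. Control 7 had a mitochondrially encoded share of 0.175%, where the rest of batch 2 Control had 1.74% to 1.94%. Tyrphostin 5 had a summed leukocyte marker level of 867 CPM, against 21.5 to 56.9 CPM in the other Tyrphostin libraries. Whether these properties bear on the 3 member values was not tested.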

How the results depend on the processing

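With each library left out and under 13 other alternatives, Gclc was called throughout, from -1.16 to -0.92 on the log2 scale, and Srxn1 in all but 1, from -0.86 to -0.64. Keap1 kept its sign and was called in 12 of 17 omissions and 8 of 13 other alternatives; the calls were lost with no filter on low counts (edgeR adjusted p = 0.0924), with a covariate for log10 total count (0.0579), with Control libraries summed by set (0.101), with 3 libraries left out and with the replicate block. Gclm was called with the total count covariate (1.59, edgeR adjusted p = 0.0365). Nfe2l2, near 0, changed sign with upper-quartile factors (0.0107), library totals (0.15), no filter (0.0336), limma-voom (0.0218), summed Control sets (0.06), 3 libraries left out (0.0336) and the replicate block (0.0331), and ranged from -0.10 to 0.11 with 1 library left out. Gclc within batch 1 was not called with library totals (edgeR adjusted p = 0.106), and within batch 2 it was called with no filter (0.0167) and by DESeq2 (adjusted p = 0.0318). The batch difference among Control libraries was called with library totals and by DESeq2 for Srxn1 (0.85 and 0.68) and Txnrd1 (0.83 and 0.66). The replicate block fit takes its treatment effect from numbers 1 to 3 of batch 1 alone, as set out below. The causes of these shifts were not tested.

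Members called numbered 2 to 4 with 1 library left out and 2 to 3 otherwise. The 1018 genes called overall became 619 with no batch term, 678 with the total count covariate and 636 with the replicate block, and 708 to 1314 with 1 library left out. The 11 list genes called became 7 with Control libraries summed by set, 14 by DESeq2 and 9 to 14 with 1 library left out. In the other alternatives the highest adjusted p was 0.162 for Prdx5, 0.151 for Prdx1 and 0.0704 for Txn2 (edgeR, replicate block), 0.148 for Fech and 0.0866 for Txn1 (edgeR, no batch term) and 0.0867 for Akr1b8 (edgeR, Control libraries summed by set). Counts within batch 1 ran from 394 to 687 with 1 library left out. Counts within batch 2 were 222 with no filter, 303 by DESeq2 and 11 to 221 with 1 library left out. The interaction gave 79 genes with no filter, and Control batches differed in 1473 genes by DESeq2. Gclm within batch 2 ranged from -0.75 to 0.60 with 1 library left out, negative without Control 8 (-0.02) and Tyrphostin 6 (-0.75).

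Replicate numbers are shared by Tyrphostin and Control libraries, but nothing in the labels says that they pair them: libraries of the same number had correlated deviations of 0.03 to 0.32, and only 2 of 6 Tyrphostin libraries correlated best with their own number. For numbers 4 to 6 the Control library is of batch 1 and the Tyrphostin library of batch 2, so these numbers cross the batches. Numbers 7 to 11 have no Tyrphostin library. With batch as a term, numbers 4 to 6 are taken up by the batch difference. The treatment effect in the replicate block fit therefore rests on numbers 1 to 3, all of batch 1. With the replicate block 636 genes were called (259 higher, 377 lower), Gclm was called at 2.17 (edgeR adjusted p = 0.00557), and Keap1 (0.256) and Srxn1 (0.125) were not. Nqo1 was above 3 counts in 5 of 17 libraries, so its groups were not compared.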
